A study of Homo sapiens with 3 samples.

Results

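The 8 genes described here, ANKRD1, CYR61 (also called CCN1), CTGF (also called CCN2), AMOTL2, AJUBA, LATS2, THBS1 and TAGLN, are targets of the transcriptional coactivator YAP. They were chosen by name among the 33538 genes of the count matrices, and all 8 were found in each library. RNA of single cells was measured with the 10x Genomics 3′ assay, in which every captured RNA molecule carries a unique molecular identifier (UMI). The cells were Caco-2 (passage 8) and HT29 (passage 13), both established lines from human colorectal carcinoma, mixed at 9 parts of Caco-2 to 1 part of HT29 and grown together on Transwell membranes for 21 days of differentiation. Of the 3 Transwells, 2 were untreated controls and 1 received 1 ng/ml Escherichia coli O111:B4 lipopolysaccharide (LPS) in its apical chamber on day 22 for 24 h, and all 3 were harvested on day 23. Each Transwell gave 1 library. Both lines in every well came from the same seeded stocks, and nothing in the labels ties the wells to separate cultures. The p-values therefore hold for these 3 wells only, and the spread behind them is partly estimated from other genes.

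YAP and its relative TAZ, encoded by WWTR1, carry no DNA-binding domain and act on genes through the TEAD transcription factors. In the Hippo pathway the MST kinases activate the LATS kinases, which phosphorylate YAP and TAZ and keep them out of the nucleus. A stretched or spread cell, or one at the edge of a layer, tends to hold more YAP in its nucleus. In the intestine YAP is known for its part in regeneration of the crypt after injury and is low in the nuclei of mature villus enterocytes.

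The targets fall into groups by what their proteins do. CYR61, CTGF and THBS1 (thrombospondin 1) encode secreted proteins of the cell's surroundings. ANKRD1 encodes an ankyrin repeat protein that acts as a transcriptional cofactor and is widely read as a marker of YAP activity. TAGLN encodes transgelin, an actin-binding protein that is also a classic target of the serum response factor SRF. AMOTL2, LATS2 and AJUBA encode members of the pathway itself: angiomotin-like 2 holds YAP at junctions, LATS2 is a kinase that inactivates YAP, and AJUBA is a LIM-domain scaffold that restrains LATS kinases.

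In GRCh38, with the GENCODE annotation, ANKRD1 (ENSG00000148677) lies on the minus strand of chromosome 10 from 90912096 to 90921087. CTGF (ENSG00000118523) lies on the minus strand of chromosome 6 from 131948176 to 131951372, and CYR61 (ENSG00000142871) on the plus strand of chromosome 1 from 85580761 to 85584589. THBS1 (ENSG00000137801) is on the plus strand of chromosome 15 from 39581079 to 39599466 and TAGLN (ENSG00000149591) on the plus strand of chromosome 11 from 117199370 to 117207464. AMOTL2 (ENSG00000114019) runs from 134355347 to 134375479 on chromosome 3, AJUBA (ENSG00000129474) from 22971177 to 22982551 on chromosome 14, and LATS2 (ENSG00000150457) from 20973036 to 21061586 on chromosome 13, all on the minus strand.

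Promoter sequences from RefSeq (GRCh38.p14), 250 bases before to 50 bases after a gene's start, were at hand for 6 of the 8 genes, in 8 entries, and were searched on both strands for GGAATG, the letters of the TEAD motif. Each of the 6 genes had the motif in at least 1 entry, AMOTL2 and AJUBA in 1 of their 2. Of all 35116 promoter entries 14% hold it, which is a share of entries and not of genes. CTGF had 3 matches and ANKRD1 had 2. Their 250 upstream bases are printed to show these matches, 5′ to 3′ on the gene's own strand, with GGAATG in capitals. Also in capitals in ANKRD1 is TGATTCA, a match to TGANTCA, a loose form of the AP-1 motif with any base in the middle. That loose form is in 7.71% of all promoter entries.
ANKRD1, chr10:90921088-90921337, minus strand: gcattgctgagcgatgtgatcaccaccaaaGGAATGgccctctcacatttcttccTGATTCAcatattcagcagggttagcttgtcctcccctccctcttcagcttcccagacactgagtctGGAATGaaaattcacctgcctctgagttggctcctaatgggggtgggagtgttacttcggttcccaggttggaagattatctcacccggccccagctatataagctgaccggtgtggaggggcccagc
CTGF, chr6:131951373-131951622, minus strand: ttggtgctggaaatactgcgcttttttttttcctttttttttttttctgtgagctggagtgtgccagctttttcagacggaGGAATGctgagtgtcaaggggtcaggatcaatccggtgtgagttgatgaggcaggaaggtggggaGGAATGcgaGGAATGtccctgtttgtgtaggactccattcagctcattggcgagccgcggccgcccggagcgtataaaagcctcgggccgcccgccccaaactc

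In ANKRD1 the TEAD letters begin 220 and 128 bases before the start, and in CTGF 169, 104 and 95 bases before it. The other 4 genes with an entry had a single match each. It is shown within 30 bases, with the motif in capitals, written as CATTCC where it lies on the opposite strand.
THBS1, chr15:39581021-39581050, plus strand: gaggaatccccaGGAATGcgagcgcccctt
AMOTL2, chr3:134374499-134374528, minus strand: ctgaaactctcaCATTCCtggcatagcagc
AJUBA, chr14:22976884-22976913, minus strand: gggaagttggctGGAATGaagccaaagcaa
LATS2, chr13:21061560-21061589, minus strand: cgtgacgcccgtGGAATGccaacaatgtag

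In THBS1 the match begins 46 bases before the start and in LATS2 10 bases after it. AMOTL2 and AJUBA have 2 promoter entries each, and in both the match is in the entry of the start that lies further downstream. The SRF motif known as the CArG box was in none of the 8 entries, and 1.29% of all entries hold it. TAGLN, the SRF target among the genes, and CYR61 had no entry and were not searched. A match is a description of letters and shows no binding.

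After the minimums of the study on UMIs, genes and mitochondrial share and the removal of likely doublets, 4633 and 4989 cells were kept in the controls and 4850 in the LPS-treated library. The median depth per kept cell fell from 5452 UMIs in control 1 to 4101 in control 2 and 3572.5 in the LPS-treated library. Pairs of libraries shared 9 to 11 cell barcodes. Levels are given as CPM, a gene's UMIs scaled to a total of 1000000 after those of all cells of 1 class and 1 library were added up, and since 3′ tags are counted once per molecule they were not divided by gene length. Each cell was assigned to a line from the study's lists of genes specific to Caco-2 and HT29 in bulk RNA, without the 8 targets and the other lists used here. This gave 3909 to 3947 Caco-2-line cells and 656 to 987 HT29-line cells per library, and 30 to 93 cells were assigned to neither. EPCAM, an epithelial surface marker, was at 652 ± 22.6 CPM (SD, n = 3 libraries) in Caco-2-line cells and 627 ± 40.3 CPM in HT29-line cells.

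All 8 targets were lower in HT29-line cells than in Caco-2-line cells of the same wells. This comparison asks which of the lines the RNA of YAP targets came from. ANKRD1 was nearly confined to the Caco-2 line, CTGF, TAGLN and AJUBA followed, and CYR61, AMOTL2, LATS2 and THBS1 had smaller differences. By edgeR's quasi-likelihood test on counts summed per line and library, with Benjamini-Hochberg adjustment, all 8 passed the threshold of 0.05. Of all 14500 genes tested, 38% were lower and 34.7% higher in HT29-line cells. The 8 targets had a median log2 fold change of -1.33 and all genes tested one of -0.06.

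ANKRD1 reached 41.2 CPM in control 1, 67.1 in control 2 and 52.8 in the LPS-treated library among Caco-2-line cells, and 0.743, 1.68 and 2.01 CPM among HT29-line cells, where it rested on 3, 7 and 7 UMIs. The lines did not overlap, and the log2 fold change was -5.27 (standard error 0.20, edgeR's quasi-likelihood test, adjusted p = 2.50e-16). Free RNA in the droplets can give UMIs of an abundant gene in cells that do not express it. The apolipoprotein gene APOC3, a product of enterocytes, was read in HT29-line cells at 5.26, 5.32 and 9.32% of its Caco-2-line CPM in the 3 libraries. ANKRD1 was below that, at 1.80, 2.51 and 3.82%. In control 2 its 7 UMIs lay in 3 HT29-line cells, with 5 of them in 1 cell. The source of the ANKRD1 UMIs in HT29-line cells was not tested. The log2 fold change of ANKRD1 was -3.83 when a cell's line was read from its cluster and -4.51 among G1 cells alone, the latter chosen after seeing the data. The other 7 targets were at 15.2 to 71.2% of their Caco-2-line level in HT29-line cells, above APOC3 in every library.

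Among the secreted targets, CTGF was at 82.8, 93.4 and 71.2 CPM in Caco-2-line cells of control 1, control 2 and the LPS-treated library and at 22.3, 14.2 and 25.9 CPM in HT29-line cells. The lowest Caco-2-line value of CTGF was above the highest HT29-line value, and the log2 fold change was -2.08 (standard error 0.15, edgeR's quasi-likelihood test, adjusted p = 2.89e-11). CYR61 was at 29.9, 41.4 and 39.6 CPM against 21.3, 15.9 and 21.0 CPM, which do not overlap either, with a log2 fold change of -1.0. THBS1 had the smallest difference, from 9.02, 10.6 and 14.1 CPM to 5.45, 6.98 and 9.78 CPM. It was lower in each well, but the HT29-line value of the LPS-treated library lay above the Caco-2-line value of control 1, and its log2 fold change was -0.68 (standard error 0.17, edgeR's quasi-likelihood test, adjusted p = 0.00124).

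TAGLN was at 23.2, 21.5 and 16.7 CPM in Caco-2-line cells and 3.96, 5.78 and 5.47 CPM in HT29-line cells, a log2 fold change of -2.10. The difference stayed past the threshold but was smaller, at -1.24, among G1 cells alone and at -1.05 with lines read from clusters. The large HT29 cluster had 9.34% of its cells in S or G2M phase. In clusters of 3395 and 3037 cells, nearly all of the Caco-2 line, the share was 35.7 and 39.8%, but it was 8.81% in the enterocyte-like one. The part of the cell cycle in the line differences was not tested beyond the G1 comparison. Of the targets within the pathway, AJUBA was at 28.2, 30.6 and 33.3 CPM against 6.68, 12.8 and 12.7 CPM, with no overlap and a log2 change of -1.61. AMOTL2 and LATS2 differed less: AMOTL2 was at 43.8 to 58.3 CPM in Caco-2-line cells and 21.8 to 38.3 CPM in HT29-line cells, and LATS2 at 22.2 to 27.3 CPM and 10.6 to 14.1 CPM, with log2 fold changes of -0.94 and -1.05. ANKRD1, AMOTL2, AJUBA and TAGLN are themselves on the study's bulk list of Caco-2 genes. They were left out of the score that assigned the lines.

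**Figure D1:**
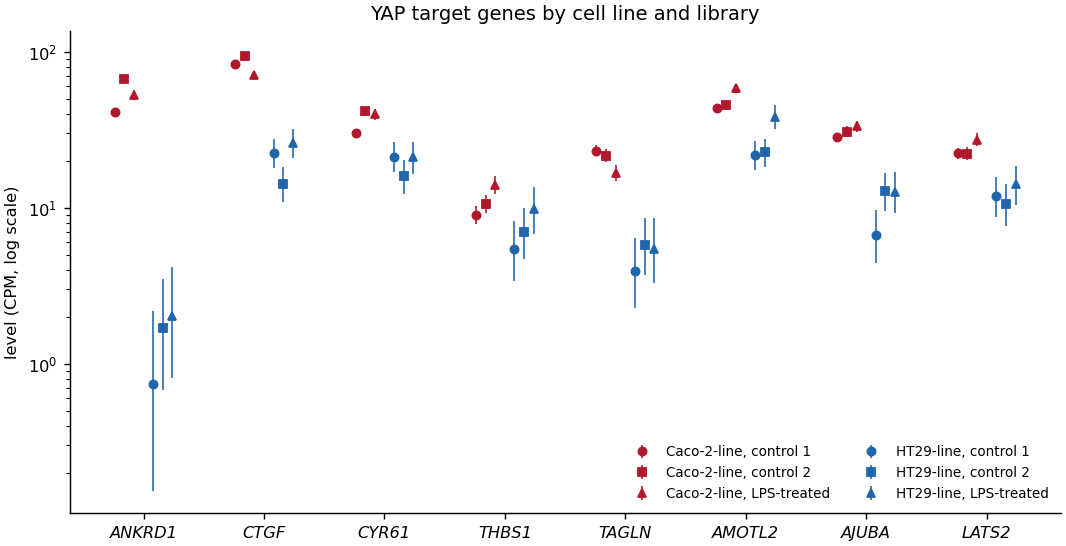
CPM (log axis) of each of the 8 targets in Caco-2-line and HT29-line cells, with 1 point per library and an exact Poisson 95% interval of its UMIs as the bar. The ANKRD1 points of HT29-line cells lie between 0.743 and 2.01 CPM, far below its Caco-2-line points at 41.2 to 67.1 CPM, while the THBS1 points of the lines come closest to each other.

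Of the coactivators, only WWTR1 passed the test between the lines. YAP1 itself was at 51.5 to 55.7 CPM in Caco-2-line cells and 46.3 to 59.0 CPM in HT29-line cells, with a log2 fold change of -0.11 that did not pass the test (adjusted p = 0.341, edgeR's quasi-likelihood test). WWTR1, which encodes TAZ, was at 24.0, 21.1 and 26.0 CPM in Caco-2-line cells and at 1.24, 1.93 and 2.01 CPM in HT29-line cells, a log2 fold change of -3.85 (standard error 0.22, edgeR's quasi-likelihood test, adjusted p = 3.92e-13). Of the TEAD genes, TEAD4 was lower in HT29-line cells (-1.89) and TEAD1 higher (0.52), and TEAD2 (0.32) and TEAD3 (0.08) did not pass.

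Of 31 other genes of the Hippo pathway that were tested, 7 were higher and 15 lower in HT29-line cells, and 9 did not pass. Of all genes tested, 34.7% were higher and 38% lower. WWTR1 and AMOTL1, a relative of AMOTL2, had the largest changes, AMOTL1 at 44.6 to 55.3 CPM against 2.23 to 6.33 CPM. The other genes often listed as YAP targets were divided, as all genes tested were, with 7 of 15 higher and 8 lower. Among the higher ones, NT5E, which encodes the surface enzyme CD73, had 34.2 to 44.8 CPM in HT29-line cells and 6.66 to 9.26 CPM in Caco-2-line cells, a log2 fold change of 2.34. AXL, a receptor tyrosine kinase, was lower at -2.68, and NUAK2, a kinase, at -1.71. IGFBP3, a secreted binder of insulin-like growth factors, had 73 UMIs in Caco-2-line cells and 0 in HT29-line cells of all libraries, which is at least 4.59-fold higher in Caco-2-line cells when 3 counts over the HT29-line group are taken as its floor.

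The lists of SRF and actin, immediate-early and TGF-β genes were also divided by line, beside 34.7% higher and 38% lower of all genes tested. Of 12 tested genes of SRF and the actin cytoskeleton, 7 were higher and 4 lower in HT29-line cells. MYL9 and CALD1, which encode a myosin light chain and caldesmon, were lower, as TAGLN was, with 60.9 to 73.2 CPM of MYL9 in Caco-2-line cells and 1.98 to 5.78 CPM in HT29-line cells. TPM2, a tropomyosin gene, and TAGLN2, a paralog of TAGLN, went the other way by log2 fold changes of 3.84 and 3.0. Of 12 immediate-early genes, which rise within minutes of a stimulus or of cell handling, 8 were higher and 3 lower in HT29-line cells. All 12 summed to 2912 to 3231 CPM in HT29-line cells against 2284 to 2536 CPM in Caco-2-line cells. Of 6 tested targets of TGF-β, 5 were higher, PMEPA1 and SKIL by 3.78 and 2.52, and 1 was lower, TGFBI by -2.11.

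Fibroblasts and smooth muscle cells are known to express CTGF, CYR61, THBS1 and TAGLN strongly, and their markers were divided in these cells. The fibroblast marker DCN was at 0 in all libraries, and ACTA2, a marker of smooth muscle, at 0 to 0.575 CPM. The 9 stromal markers summed to 18.6 to 25.5 CPM in Caco-2-line cells and 25.5 to 33.9 CPM in HT29-line cells, the former mostly COL1A1 at 10.3 ± 1.67 CPM (SD, n = 3 libraries) and LUM at 5.54 ± 0.450 CPM, the latter mostly LUM at 25.6 ± 4.01 CPM. LUM in HT29-line cells was thus at a level like that of CTGF there, 20.8 ± 5.99 CPM. The 5 endothelial markers summed to 2.34 to 2.83 CPM in Caco-2-line cells and to at most 0.241 CPM in HT29-line cells. Between 7 and 8 of the 9 stromal markers had a UMI in Caco-2-line cells and 3 to 4 in HT29-line cells.

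Within the Caco-2 line, the targets fell with the expression of enterocyte genes. Caco-2-line cells of each library were ranked by the mean log-normalized level of 14 enterocyte genes, none of them a target, and the upper tertile was compared with the lower. A tertile is a range of the score and not a cell type. In the upper tertile ANKRD1, TAGLN, CYR61, THBS1, CTGF and LATS2 were lower, AMOTL2 was higher with TMM scaling of the sums but not with scaling by their totals, and AJUBA did not pass with TMM scaling and was lower with totals. Of 13338 genes tested, 29.4% were lower and 30.8% higher (60.2% in all), and 6 of the 8 targets were lower and 1 higher. The targets had a median log2 fold change of -0.82 and all genes tested one of -0.01.

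ANKRD1 fell furthest. It was at 103 CPM in the lower tertile of control 1, 136 in control 2 and 104 in the LPS-treated library, at 21.1, 50.3 and 45.8 CPM in the middle tertile, and at 2.5, 17.1 and 11.3 CPM in the upper. No upper value came near a lower one, and the log2 fold change was -3.36 (standard error 0.17, edgeR's quasi-likelihood test, adjusted p = 1.67e-17). TAGLN went the same way in every library, from 39.2, 39.9 and 34.0 CPM through 24.9, 18.0 and 12.2 CPM to 5.82, 7.07 and 4.91 CPM, a log2 fold change of -2.43. Among G1 cells alone, a choice made after seeing the data, the log2 fold change was -3.12 for ANKRD1 and -1.26 for TAGLN, both past the threshold. With a list of 12 brush border genes in place of the enterocyte list it was -1.69 for ANKRD1 and -1.43 for TAGLN, also past it.

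The secreted targets fell by less. CYR61 was at 46.8, 56.1 and 55.4 CPM in the lower tertile and at 11.5, 19.5 and 18.9 CPM in the upper, which do not overlap, and the log2 fold change was -1.46 (standard error 0.09, edgeR's quasi-likelihood test, adjusted p = 9.50e-15). THBS1 was at 15.7, 14 and 19.8 CPM against 4.40, 6.60 and 8.01 CPM, and its log2 fold change was -1.19. CTGF stayed high in the middle tertile and fell only in the upper, with 101, 96.9 and 82.1 CPM, then 96.4, 110.4 and 76.9 CPM, then 50.8, 71.0 and 54.9 CPM, a log2 fold change of -0.45.

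The targets within the pathway changed least. LATS2 was at 31.0, 25.4 and 29.997 CPM in the lower tertile and 15.3, 18.1 and 23.8 CPM in the upper, a log2 fold change of -0.40 (standard error 0.11, edgeR's quasi-likelihood test, adjusted p = 0.00185) that no longer passed without control 1 (-0.21, adjusted p = 0.167) or with the brush border list (-0.20, adjusted p = 0.122). AMOTL2 was at 47.9, 50.3 and 56.1 CPM against 44.2, 42.6 and 67.1 CPM, so its CPM was lower in both controls and higher in the LPS-treated library. The test called it higher by 0.21 (adjusted p = 0.0248, edgeR's quasi-likelihood test), and the sign turned to -0.03 when libraries were scaled by their totals rather than by TMM. AJUBA was at 32.1, 34.3 and 38.3 CPM against 27.8, 28.4 and 32.9 CPM, and its log2 fold change was 0.01 with TMM scaling and -0.23 (adjusted p = 0.0243) with scaling by totals, which moved the median of all genes tested to -0.25.

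The tertiles differed in more than enterocyte genes. The upper tertile held 16.7 to 23.9% of cells in S or G2M phase and the lower 48.9 to 52.3%, and the Wnt inhibitor gene DKK1 was at 11.1 to 20.6 CPM in the upper tertile and 97.7 to 122 CPM in the lower. Immediate-early genes summed to 2340 to 2561 CPM in the upper and 2129 to 2484 CPM in the lower. The part of these in the differences of the targets was not tested beyond the G1 comparison.

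Around the targets, TEAD1 and TEAD2 fell with the score by -1.08 and -2.91, and TEAD3 was higher by 0.30 with TMM scaling, its CPM being lower in control 1 and higher in the other libraries, while WWTR1 (-0.10) and TEAD4 (-0.21) did not pass. YAP1 was at 52.3, 55.5 and 59.8 CPM in the lower tertile and 55.4, 50.9 and 54.4 CPM in the upper, so it was lower in control 2 and the LPS-treated library and higher in control 1. It passed as higher with TMM scaling, at 0.19, a value smaller than the shift of all genes between the scalings. The counts of the lists stand beside 30.8% higher and 29.4% lower of all genes tested. Of 31 tested Hippo genes, 6 were higher and 9 lower, VGLL1, a TEAD cofactor, and FRMD6 among the lower. Of 15 other YAP targets, 3 were higher and 7 lower. FJX1 and CCDC80 were lower, with CCDC80 at 28.9 to 36.9 CPM in the lower tertile and 3.57 to 10.0 CPM in the upper, and DOCK5, which encodes an exchange factor for Rac, was higher at 1.17. Of 12 SRF and actin genes, 3 were higher and 6 lower: VCL (vinculin) fell by 0.67 and MYL9 was higher by 0.76. Immediate-early genes were higher in 6 of 12 cases and lower in 2, KLF6 being higher by 1.25 and IER3 lower by -0.75. Of 6 TGF-β targets, 3 were higher and 1 lower.

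**Figure D2:**
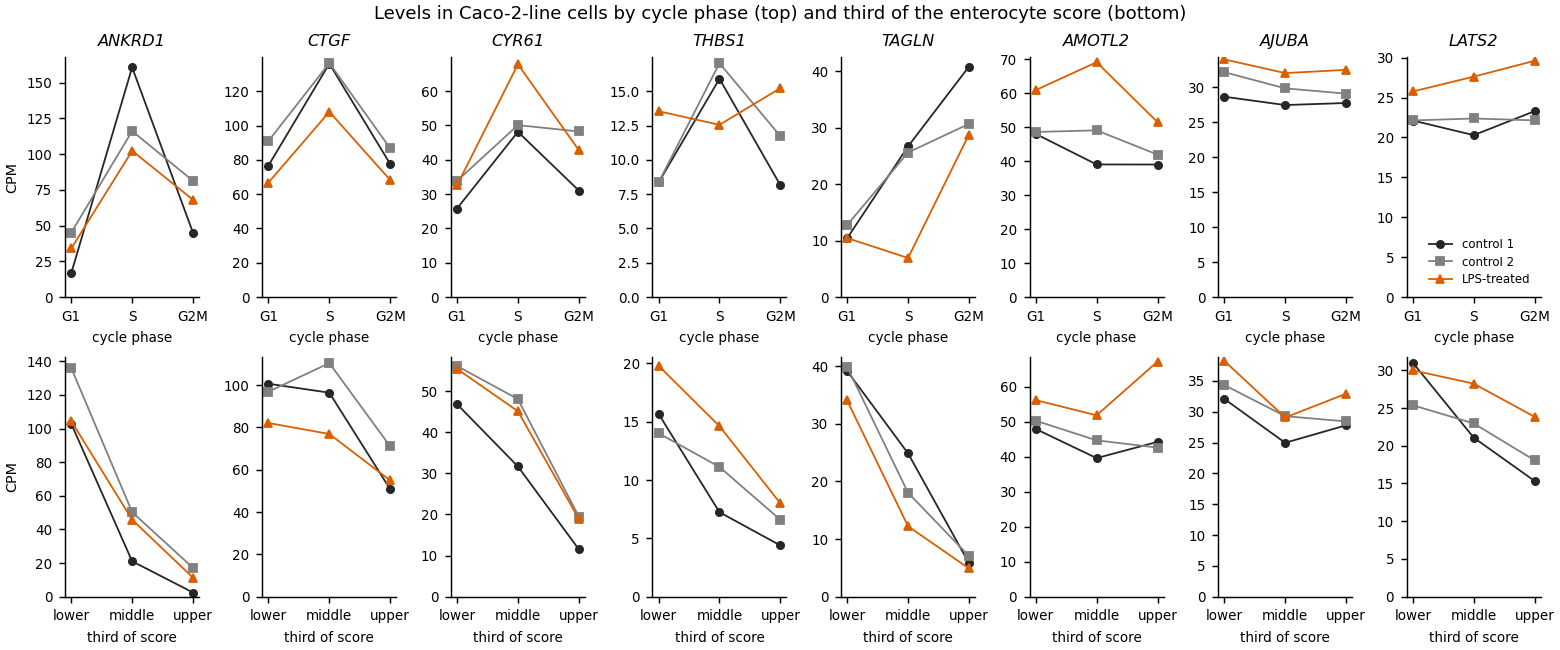
CPM (linear axis from 0) of each of the 8 targets in Caco-2-line cells, by cell cycle phase and by tertile of the enterocyte score, with 1 line per library. ANKRD1 and TAGLN descend from the lower to the upper tertile in all 3 libraries, from 103 to 136 CPM down to 2.5 to 17.1 CPM for ANKRD1, while the lines of AMOTL2 and AJUBA stay nearly level.

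Between phases of the cell cycle, ANKRD1, CYR61, CTGF, THBS1 and TAGLN were higher in S-phase than in G1 Caco-2-line cells, and AMOTL2, AJUBA and LATS2 did not pass the test. Phases were read from published lists of S and G2M genes, none of which is a target. Of 13965 genes tested, 21.4% were higher and 20.1% lower in S phase, and 5 of the 8 targets were higher and 0 lower. By edgeR's quasi-likelihood test 0 targets were also lower at an unadjusted p under 0.05, and by DESeq2 0 were lower. The median log2 fold change over the targets was 0.57, and over all genes tested it was -0.00 with TMM and 0.11 with scaling by totals.

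ANKRD1 was at 16.7 CPM in G1 cells of control 1, 45.1 in control 2 and 34.0 in the LPS-treated library, and at 161, 116 and 102 CPM in S-phase cells. All S-phase values were above all G1 values, and the log2 fold change was 2.02 (standard error 0.15, edgeR's quasi-likelihood test, adjusted p = 2.24e-17), or 1.37 without control 1. CTGF rose from 76.6, 90.9 and 66.7 CPM to 136, 136 and 108 CPM, and CYR61 from 25.8, 33.8 and 32.5 CPM to 48.1, 50.1 and 67.8 CPM, neither with overlap, with log2 fold changes of 0.60 and 0.73. THBS1 and TAGLN did not change in the same direction in all 3 wells. In the controls THBS1 was at 8.35 and 8.35 CPM in G1 and 15.9 and 17.1 CPM in S phase, and TAGLN at 10.4 and 12.7 CPM against 26.7 and 25.6 CPM. In the LPS-treated library both were lower in S phase, THBS1 at 12.6 against 13.5 CPM and TAGLN at 6.91 against 10.4 CPM.

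Both of these calls were lost without control 1, with adjusted p-values of 0.278 for THBS1 and 0.247 for TAGLN, with DESeq2 (0.0782 and 0.272) and without the library as a term (0.139 and 0.0547). The call of THBS1 was also lost without control 2 (adjusted p = 0.205), and that of TAGLN with phases read from cells thinned to 1500 UMIs (0.394). Within the lower tertile of the enterocyte score alone, an alternative chosen after seeing the data, ANKRD1 was higher in S phase by 1.68 (adjusted p = 2.32e-13, edgeR's quasi-likelihood test) and TAGLN by 0.94, and CYR61 (0.35, adjusted p = 0.117), CTGF (0.24, adjusted p = 0.127) and THBS1 (0.51, adjusted p = 0.132) did not pass.

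In G2M-phase against G1 cells, 3 targets were higher and 1 lower, where 24.5% of all genes tested were higher and 24.8% lower. TAGLN was higher by 1.53 (standard error 0.11, edgeR's quasi-likelihood test, adjusted p = 3.22e-17), with 40.8, 30.6 and 28.8 CPM in G2M against 10.4, 12.7 and 10.4 CPM in G1 in control 1, control 2 and the LPS-treated library. These values of TAGLN do not overlap, in contrast to its S-phase values. ANKRD1, at 44.9, 81.3 and 68.0 CPM, was higher by 0.98, a call that DESeq2 did not make (adjusted p = 0.0571). In ANKRD1 the G2M value of control 1 lay just below the G1 value of control 2, although each well on its own was higher in G2M.

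CYR61 was higher in G2M by 0.33 and AMOTL2 lower by -0.33, with 39.0, 41.9 and 51.4 CPM of AMOTL2 against 48.0, 48.5 and 60.9 CPM in G1. Both calls were lost without the library as a term, with adjusted p-values of 0.0970 and 0.0785, and within the lower tertile alone, where CYR61 was at -0.01 and AMOTL2 at -0.08. CTGF was at 66.7 to 90.9 CPM in G1 and 68.2 to 86.7 CPM in G2M and did not pass (-0.08), but it was lower by -0.33 within the lower tertile (adjusted p = 0.00366, edgeR's quasi-likelihood test). AJUBA (-0.16), LATS2 (0.02) and THBS1 (0.13) did not pass.

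The phases differed in depth and in the enterocyte program. The median depth was 3217 to 4814 UMIs in G1 cells and 4697 to 7426 in G2M cells, and the enterocyte gene APOA4 was at 2021 to 2452 CPM in G1 and 188 to 451 CPM in S phase. DKK1 was at 36.5 to 57.9 CPM in G1 and 58.1 to 134 CPM in S phase, and the immediate-early genes summed to 2447 to 2796 CPM in G1 and 2048 to 2338 CPM in S phase. Apart from the lower-tertile comparison, the part of these in the targets' differences was not tested.

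Other genes of the pathway changed in both directions with phase, as all genes tested did. Of those, 21.4% were higher and 20.1% lower in S phase, and 24.5% higher and 24.8% lower in G2M. In S phase, 7 of 31 tested Hippo genes were higher and 5 lower, with TEAD2 higher by 1.18, TEAD1 by 0.35 and YAP1 lower by -0.39, and in G2M 6 were higher and 7 lower, with TEAD4 higher by 0.44 and TEAD1 by 0.41. Of 15 other YAP targets, 4 were higher and 3 lower in S phase, and 5 and 2 in G2M. BIRC5 (survivin) led both, at 77.3 to 89.0 CPM in G2M and 2.40 to 3.44 CPM in G1, but it is also on the list of G2M genes that defined the phase. FJX1 was higher in S phase by 1.69 and in G2M by 1.09. Immediate-early genes were lower in 10 of 12 cases in S phase and 9 in G2M, with MYC higher in both. Of 12 SRF and actin genes, 3 were higher and 2 lower in S phase and 5 and 2 in G2M, and of 7 TGF-β targets 1 was higher and 2 lower in S phase and 1 and 3 in G2M. TAGLN2 was higher by 0.41 in S phase and 0.67 in G2M.

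**Figure D3:**
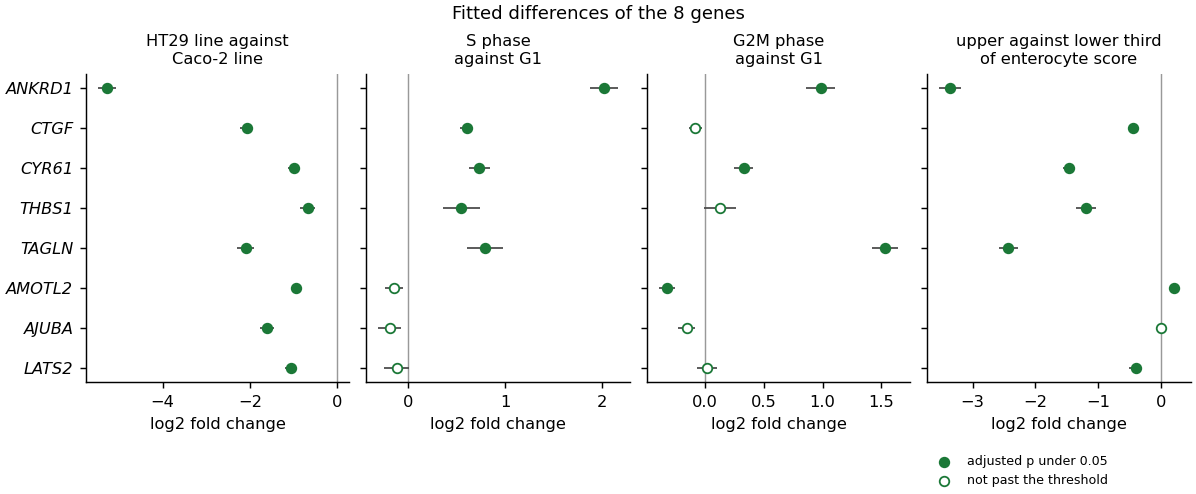
Log2 fold change of each of the 8 targets in the 4 comparisons (HT29 line against Caco-2 line, S against G1, G2M against G1, and upper against lower tertile of the enterocyte score), with its standard error as the bar. Filled points passed the adjusted p threshold of 0.05 in edgeR's quasi-likelihood test. ANKRD1 has the largest value in the line, S-phase and tertile comparisons, at -5.27, 2.02 and -3.36, and TAGLN the largest in G2M, at 1.53.

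The level of a target in a class hides how it is spread over cells. ANKRD1 and TAGLN were concentrated in few Caco-2-line cells. A UMI of ANKRD1 was found in 7.02% (exact binomial 95% interval 6.24 to 7.86%) of the Caco-2-line cells of control 1, 11.4% (10.4 to 12.4%) of control 2 and 8.93% (8.06 to 9.87%) of the LPS-treated library. In HT29-line cells the shares were 0.457, 0.304 and 0.819%, at median depths of 5342.5, 3728 and 3530 UMIs against 5464, 4226 and 3573 in the Caco-2 line.

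A single cell of control 1 held 142 UMIs of ANKRD1, 13.4% of all in that library, and the highest counts in the other libraries were 41 and 45. Cells with 5 or more UMIs of ANKRD1 numbered 49, 70 and 37 in control 1, control 2 and the LPS-treated library and held 64.5, 55.3 and 42.0% of its UMIs. TAGLN reached 37, 49 and 24 UMIs in 1 cell, and 16, 7 and 7 cells with 5 or more UMIs held 56.9, 35.2 and 37.1% of its total. Both genes kept their calls in every comparison when counts were limited to 10 UMIs per cell, an alternative chosen after seeing the data, with log2 fold changes of -4.99 for ANKRD1 and -1.72 for TAGLN between the lines and -3.03 and -1.89 between the tertiles.

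CTGF was found in 29.2, 27.9 and 20.1% of Caco-2-line cells, AMOTL2 in 21.8, 19 and 19.8%, and both mostly at low counts, with at most 16 UMIs of CTGF and 8 of AMOTL2 in a cell. THBS1 and TAGLN were found in the fewest cells, THBS1 in 5.02, 4.66 and 4.85% and TAGLN in 5.30, 5.96 and 3.65%, with at most 6 UMIs of THBS1 in any. When every cell was thinned to 1500 UMIs, the variance of ANKRD1 counts over cells was 2.87, 2.62 and 2.07 times the mean in the 3 libraries and that of TAGLN 2.16, 2.11 and 1.45 times, where counting alone gives about 1. CTGF followed at 1.27, 1.48 and 1.38. For AMOTL2, AJUBA, LATS2 and CYR61 the ratio lay between 0.982 and 1.11, and for THBS1 between 1.13 and 1.23.

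**Figure D4:**
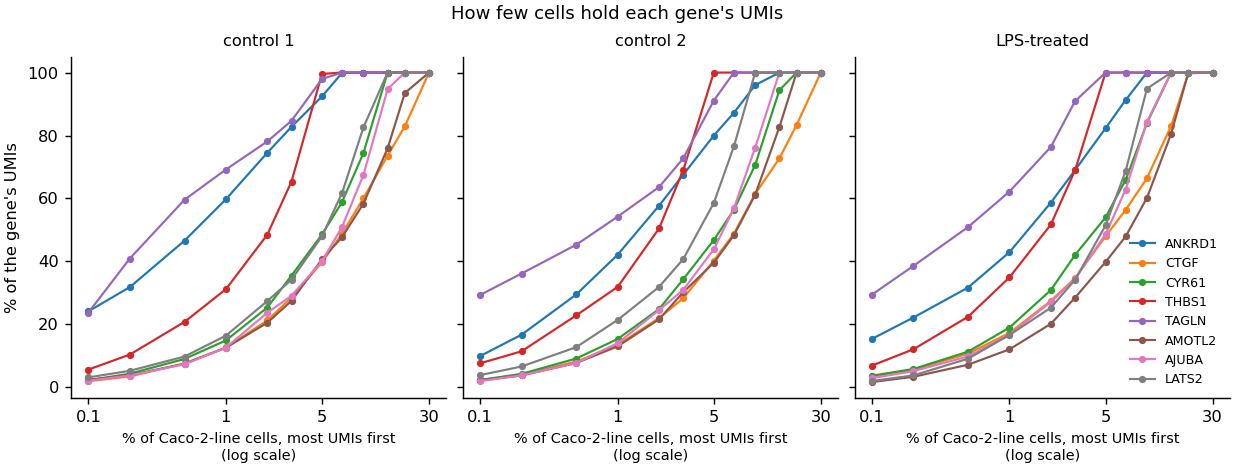
Share of a target's UMIs (y axis, percent) held by the Caco-2-line cells with the most of them (x axis, percent of cells, log axis), with 1 panel per library and 1 curve per target. The 1% of cells with the most ANKRD1 hold 42.1 to 59.8% of its UMIs and those with the most TAGLN 54.2 to 69.2%, against 12.6 to 17.3% for CTGF.

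Clusters of all kept cells were made without the targets and the pathway lists. The targets had their highest means in 3 of them, described here without a test. The place of the highest mean does not sort the targets into separate groups. Over sums per cluster and library, Pearson's r of ANKRD1 was 0.71 with CTGF, 0.70 with CYR61, 0.70 with LATS2 and 0.32 with AMOTL2. Clusters with at least 20 cells in every library numbered 11. ANKRD1, CYR61, THBS1 and TAGLN were highest in a cluster led by DKK1, PLA2G2A, OLFML3, SOX2 and TCF4. It is called stem-like here after its markers, whereas the paper reports high DKK1 and ANKRD1 in a transit-amplifying-like group. The cluster held 946, 1026 and 1065 cells in control 1, control 2 and the LPS-treated library. ANKRD1 reached 117 ± 20.7 CPM there (SD, n = 3 libraries) against 106 ± 18.2 CPM in the proliferating, transit-amplifying-like cluster, where 99.4% of cells were in S or G2M phase, and these levels overlapped between libraries. It was far lower elsewhere, and no UMI of ANKRD1 was read in the 223 cells of the goblet-like cluster, which were mostly of the HT29 line. That cluster is named after MUC2, FCGBP and MUC5AC but was also led by the hormone genes SST and GCG. Its levels may therefore not be those of goblet-like cells alone. A count of 0 allows up to 9.10, 9.55 and 10.4 CPM in the 3 libraries there, counting error only.

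CTGF was highest elsewhere, in another stem-like cluster led by the liver genes ALB and AFP, at 169, 198 and 195 CPM in the 3 libraries, and next in the DKK1 cluster at 124 ± 19.6 CPM, with no overlap. ANKRD1 in the ALB and AFP cluster was at 26.5, 33.5 and 41.6 CPM, all below its DKK1-cluster values. AMOTL2, AJUBA and LATS2 had their highest mean in a cluster of 506 cells that carried no marker-based name. Its leading genes were ITGA5, AC008764.8, MSH5, TAS2R30 and RIMS4, which give it no clear identity, and its median depth was 3205.5 UMIs. There AMOTL2 was at 84.2, 109.7 and 116 CPM and AJUBA at 51.8, 73.8 and 53.8 CPM, above every library of every other cluster, while ANKRD1 was at 11.7, 29.9 and 26.2 CPM. LATS2 had 33.3 ± 10.9 CPM in it against 31.1 ± 2.27 CPM among the DKK1 cells, a difference within the spread. AMOTL2 and AJUBA did not peak where ANKRD1 did in this clustering. With log normalization and no integration AMOTL2 was again highest in another cluster than ANKRD1. AJUBA was then highest in the same cluster as ANKRD1, at 33.9 ± 2.30 CPM. So were CTGF and LATS2, while TAGLN was highest in another.

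In the enterocyte-like cluster, with APOA4 and FABP2 among its leading genes, ANKRD1 was at 1.07, 13.1 and 6.17 CPM and TAGLN at 5.33, 5.38 and 6.56 CPM. AMOTL2 was still at 48.2, 47.4 and 78.3 CPM in that cluster, and CYR61 had its lowest mean there, 11.4 ± 2.68 CPM. The large HT29 cluster, led by LCN2, had 22.8 ± 7.46 CPM of CTGF, and the goblet-like cluster had 20.4 ± 4.45 CPM, the lowest mean. When the cells were clustered at a finer resolution of 0.8, a group of 184, 148 and 172 cells had 292 ± 48.0 CPM of ANKRD1, 150.2 ± 35.8 CPM of TAGLN, 91.0 ± 20.5 CPM of CYR61 and 58.7 ± 13.99 CPM of THBS1, and 751 ± 196 CPM of DKK1. The same 4 targets were highest in the cluster with the most DKK1 at both resolutions.

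**Figure D5:**
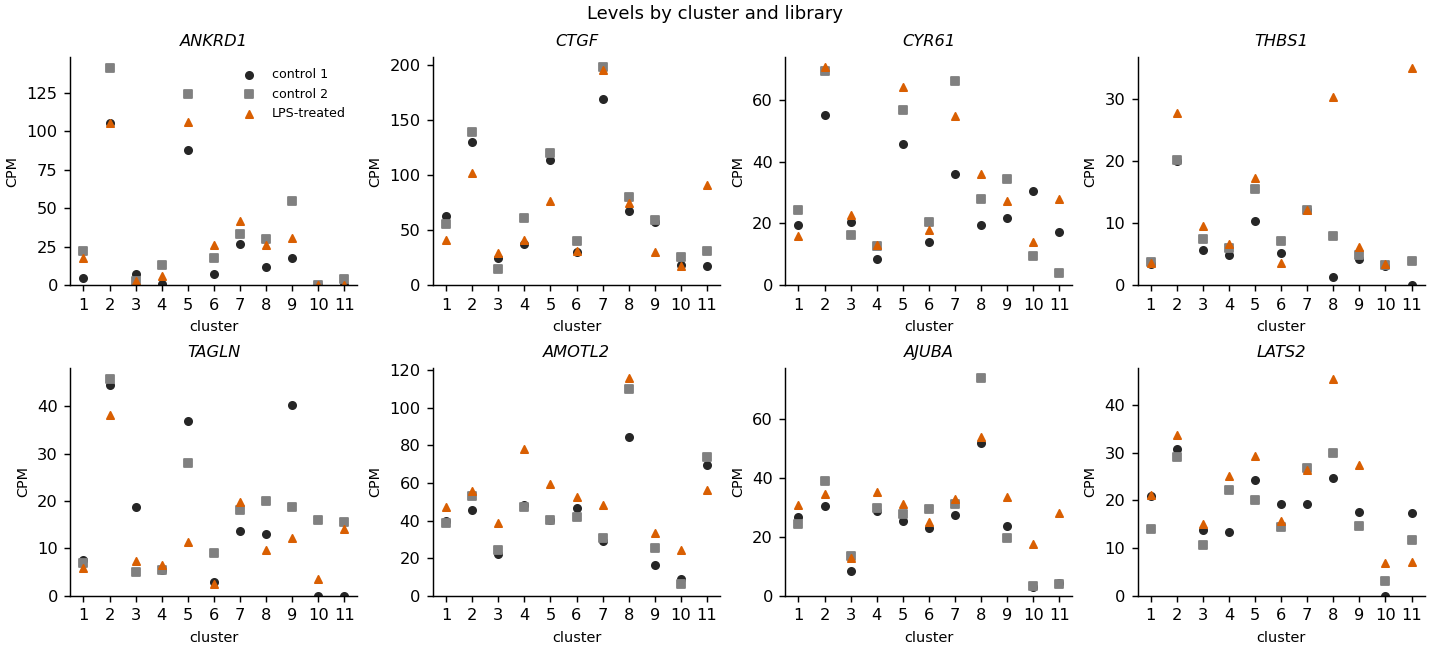
Level of each of the 8 targets in the 11 clusters with at least 20 cells in every library, as CPM (linear axis), with 1 point per library. Cluster 2 is led by DKK1, 3 is the large HT29 cluster, 4 is enterocyte-like, 5 transit-amplifying-like and 7 led by ALB and AFP. Cluster 8 is unnamed, 10 is goblet-like but also led by SST and GCG, and 11 is enteroendocrine-like. ANKRD1, CYR61, THBS1 and TAGLN have their highest mean in cluster 2, CTGF in cluster 7 at 187 CPM, and AMOTL2, AJUBA and LATS2 in cluster 8, AMOTL2 at 103 CPM.

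Summed over cells, those that expressed one target tended to hold more of the others, as a description with no test. Caco-2-line cells with 2 or more UMIs of ANKRD1 numbered 141, 212 and 156 in the 3 libraries, and cells with 0 numbered 3670, 3465 and 3568. TAGLN was at 218, 97.9 and 82.4 CPM in the former and 11.1, 12.54 and 11.2 CPM in the latter. Its counts were not limited per cell here, and 16, 7 and 7 Caco-2-line cells held 56.9, 35.2 and 37.1% of its UMIs. The part of those few cells in the TAGLN difference was not tested. DKK1 was at 300 ± 48.9 CPM (SD, n = 3 libraries) against 48.7 ± 3.36 CPM, CYR61 at 78.4 ± 23.8 against 32.6 ± 6.71 CPM, and CTGF at 139 ± 28.6 against 77.0 ± 12.1 CPM. The pathway members were higher too, AMOTL2 at 84.1 ± 16.3 against 46.4 ± 7.59 CPM and AJUBA at 50.3 ± 4.18 against 28.9 ± 2.61 CPM. The ANKRD1 cells were deeper, with medians of 7985, 6627.5 and 5016 UMIs against 5338, 4070 and 3496. CPM allows for depth, and any other link with depth was not tested.

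When cells were chosen by CTGF instead, TAGLN did not differ by more than the spread, with 19.9 ± 7.29 CPM in cells with 2 or more UMIs of CTGF and 19.8 ± 2.10 CPM in cells with 0, whereas ANKRD1 was at 111 ± 19.8 against 39.4 ± 14.5 CPM and THBS1 at 21.5 ± 8.07 against 9.24 ± 2.49 CPM. In cells thinned to 1500 UMIs the Pearson correlations over cells were weak in all 28 pairs. Their mean was 0.0240, 0.0170 and 0.0373 in the 3 libraries, and the highest was 0.137, between ANKRD1 and TAGLN in the LPS-treated library. ANKRD1 with TAGLN was also the highest pair in each control, at 0.125 and 0.0700. In sparse counts such values are no finding about single cells.

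The genes most like each target across the 33 sums of 11 clusters and 3 libraries, by Pearson's r of log levels, are given as a description, since the sums share libraries. For ANKRD1 they were BCAT1 (0.86), a transaminase of branched-chain amino acids, PHGDH (0.84), an enzyme of serine synthesis, and NOB1 (0.84), which acts in ribosome maturation. BCAT1 was at 50.3, 61.7 and 60.0 CPM in the DKK1 cluster and at 2.35, 2.35 and 5.78 CPM in the enterocyte-like cluster, in control 1, control 2 and the LPS-treated library. It was picked for its likeness to ANKRD1 over these same sums, so this difference follows from the choice and is no separate result. PHGDH and NOB1 were also among the genes most like CTGF (0.87 and 0.85), with PRDX3 (0.86), a mitochondrial peroxiredoxin. CYR61 was most like TRAP1 (0.85), a mitochondrial chaperone, NPM3 (0.83) and PLTP (0.83). TAGLN was most like COTL1 (0.88), which encodes an actin-binding coactosin-like protein, and then DKK1 (0.80).

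Other genes were nearest to the pathway members. AJUBA was most like SYNPO (0.90), which encodes the actin-associated synaptopodin, PARD6B (0.90), a gene of cell polarity, and CLDN1 (0.89), a claudin of tight junctions. AMOTL2 was most like C2CD5 (0.89), ATP11A (0.88), a phospholipid flippase, and EIF4EBP2 (0.86), a repressor of translation, and LATS2 most like OSBPL10 (0.91), TRIP10 (0.89) and SELENON (0.87). CLDN1 was highest in the unnamed cluster where AJUBA also was, with 220.1, 196 and 203 CPM. It too was picked for likeness over the same sums, which favours a shared highest cluster. THBS1 had the lowest likeness to its nearest genes, YEATS4 (0.74) and DKK1 (0.73).

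With a single LPS-treated library the effect of LPS cannot be tested, and the values are given beside the spread of the controls. Over all kept cells AMOTL2, AJUBA, LATS2 and THBS1 were higher in the LPS-treated library than in both controls, CTGF and TAGLN were lower, and ANKRD1 and CYR61 lay between the controls. Of 8168 genes with at least 10 CPM, 50.1% were higher than both controls and 25.6% lower, so 4 of 8 higher and 2 of 8 lower is the pattern of all genes.

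AMOTL2 was at 40.5 CPM (exact Poisson 95% interval 38.3 to 42.9) in control 1, 41.3 (38.8 to 43.97) in control 2 and 55.0 (51.8 to 58.3) in the LPS-treated library, 1.34 times the control mean. THBS1 was at 8.48 (7.47 to 9.59), 9.92 (8.71 to 11.2) and 13.2 CPM (11.7 to 14.9), 1.44 times, and LATS2 at 20.9, 19.9 and 24.9 CPM. For these 3 genes the interval of the LPS-treated library lay above those of both controls, and for AJUBA, at 25.2, 27.4 and 29.7 CPM, it did not. With the cell minimums of control 1 applied to all libraries, the interval stayed apart for AMOTL2 but overlapped that of a control for THBS1 (12.6 CPM in the LPS-treated library) and LATS2 (24.5 CPM). The intervals cover counting error only, and 2 controls give a poor estimate of the spread between wells.

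CTGF was at 74.4 (71.3 to 77.5), 79.3 (75.8 to 82.9) and 63.5 CPM (60.0 to 67.0), and TAGLN at 20.4 (18.8 to 22.1), 18.7 (17.0 to 20.5) and 14.6 CPM (13.0 to 16.3), both with intervals below those of the controls. ANKRD1, at 35.5, 54.9 and 43.3 CPM, differed more between the controls than the LPS-treated library differed from either. CYR61 was at 28.7, 36.6 and 36.3 CPM. In Caco-2-line cells alone the same 4 genes were higher and the same 2 lower, where 51.2% of 8008 genes were higher and 26.5% lower. In HT29-line cells ANKRD1, CTGF, AMOTL2, LATS2 and THBS1 were higher than both controls and 0 of the 8 lower. Of 8035 genes that met the same minimum of 10 CPM in these cells, 38% were higher and 24.1% lower. ANKRD1, THBS1 and TAGLN were below 10 CPM in HT29-line cells of every library and lie outside that share, so the counts are not like for like. Only AMOTL2, at 21.8, 22.6 and 38.3 CPM, had an interval above both controls. The ANKRD1 values of HT29-line cells rest on 3, 7 and 7 UMIs with overlapping Poisson intervals, and carry no direction.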

How the data were processed

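The deposited matrices hold counts, the UMIs per gene and barcode that the authors obtained with Cell Ranger from reads mapped to GRCh38, before their cell filters and without normalization. The file headers name version 3.1.0 and the study's resources table another. Totals were 33893707, 27934953 and 24185467 UMIs in control 1, control 2 and the LPS-treated library, and 0 columns were left unused. A cell was kept from 2250 UMIs and 770 genes upward in control 1 and from 1500 UMIs and 700 genes upward in the other libraries, a choice made here for the LPS-treated one, if mitochondrial UMIs were 20% or less. Scrublet on its own called 1, 0 and 1 doublets, so the 6% with the highest scores were removed (296, 318 and 310 cells). Exact binomial and Poisson intervals cover counting error only.

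Lines were called from a 2-component mixture of the bulk-list scores at a posterior of 0.95, phases with scanpy 1.11.5, and tertiles within each library. Counts were summed per class and library, and edgeR's quasi-likelihood test (version 4.0.16, in R 4.3.3) was applied (TMM, filterByExpr, library as a term, Benjamini-Hochberg over all genes tested, threshold 0.05), with 2 residual degrees of freedom for lines and 4 for phases and tertiles. With so few degrees of freedom the test borrows spread from other genes. Its p-values and standard errors can therefore be smaller than the spread of a given gene between wells. The standard error is the log2 fold change divided by the square root of the test's F statistic. The classes of a well share that well, which pairs the sums. The lowest correlation of their deviations was 0.0613 for lines, 0.115 for phases and 0.181 for tertiles. The test was also run on simulated sums, drawn with the same spread for every gene and no difference between wells other than depth. Such sums cannot check the test for paired wells or for genes whose UMIs lie in few cells. DESeq2 1.42.0 was the other tool. Clusters came from SCTransform (sctransform 0.4.2), Seurat 5.3.0 integration and Leiden clustering (leidenalg 0.10.2, resolution 0.5, 50 principal components, 15 neighbours) and were named from marker lists. Classes, score and clusters were made from the same cells as the targets' levels.

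The genes named are the 8 targets, YAP1, WWTR1 and the TEAD genes, up to 4 called genes with the largest change per list, and the 3 genes most like each target among genes with a mean of at least 10 CPM. The lists held 32 Hippo, 18 other YAP target, 15 SRF and actin, 12 immediate-early and 7 TGF-β genes. NT5E, DOCK5 and the like follow that rule, while COL1A1, LUM, DCN, ACTA2, DKK1, APOC3 and APOA4 were named to describe the classes after their values were seen. The targets and lists were chosen with earlier results of these data known. Alternatives numbered 45 planned and 12 added after seeing the data. Promoters of CYR61 and TAGLN were not analysed here.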

Additional observations from a re-analysis of the deposited data

Results flagged for a closer look

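CTGF moved in opposite directions in the lines between the LPS-treated library and the controls. Its log2 ratio to the control mean was -0.31 in Caco-2-line cells, below both controls, and 0.51 in HT29-line cells, above both controls. The HT29-line values rest on 90, 59 and 90 UMIs in control 1, control 2 and the LPS-treated library, and their Poisson intervals overlap. The difference was not tested, since there is 1 LPS-treated library.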

How the results depend on the processing

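The 8 targets stayed past the threshold between the lines under every alternative, and 8 passed without each well in turn (9514 to 9771 of all genes). Of 400 values of the 8 targets in the 4 tested comparisons under the alternatives, 363 kept their direction and side of the threshold, 21 lost the call, 2 gained it and 14 changed sign. In S against G1, where 5 targets passed, 3 did with DESeq2, 3 without the library as a term (the replicate block), 2 within the lower tertile and 3 to 5 without each well in turn, and 2300 of all genes passed within the lower tertile and 4207 to 5028 without each well, against 5783. AMOTL2, at -0.27 to 0.010 without each well, turned to 0.010 without control 1 and to 0.18 within the lower tertile, and AJUBA to 0.063 there. In G2M against G1, where 4 targets passed, 2 did without the replicate block and 4 without each well, and 4313 of all genes passed with DESeq2, 4248 without the block, 2911 within the lower tertile and 5497 to 6072 without each well, against 6880. CYR61 turned to -0.0087, THBS1 to -0.23 and LATS2 to -0.0041 within the lower tertile. LATS2, at -0.041 to 0.060 without each well, also turned to -0.041 without the LPS-treated library, -0.00077 with no doublets removed, -0.012 with the minimums of control 1 and -0.044 with phases from thinned cells, where THBS1 passed at 0.32. In the tertiles 5 to 7 targets and 6649 to 7170 genes passed without each well. AMOTL2 lost its call with DESeq2, without the block, without control 1 and without the LPS-treated library, and turned to -0.030 with scaling by totals, and AJUBA, at -0.042 to 0.034 without each well, turned to -0.23 with that scaling, -0.042 without control 1 and -0.0069 with the minimums of control 1. The mean correlation between targets was 0.0376 with cells thinned to the deeper of 2 levels, against 0.0261 at 1500 UMIs. In the controls and the LPS-treated library alike, THBS1 and the HT29-line values rest on few UMIs, which limits them. The causes of these changes were not tested.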

Other observations

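The 30, 93 and 77 cells assigned to neither line had 13.7, 9.09 and 10.6 CPM of ANKRD1 in control 1, control 2 and the LPS-treated library, on 4 UMIs each, which lies between the levels of the lines. CTGF was at 58.1, 56.8 and 69.0 CPM in these cells, on 17, 25 and 26 UMIs, and AMOTL2 at 13.7, 18.2 and 66.3 CPM, on 4, 8 and 25 UMIs.

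With log normalization and no integration the cells formed 7 clusters with at least 20 cells in every library, and 6 of the 8 targets (ANKRD1, CYR61, CTGF, AJUBA, LATS2 and THBS1) were then highest in the cluster with the most DKK1, CTGF at 156 ± 23.3 CPM (SD, n = 3 libraries). AMOTL2 was highest in a cluster of 64, 92 and 28 cells, and TAGLN in a further one, at 71.8, 32.2 and 8.74 CPM in control 1, control 2 and the LPS-treated library.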
